A study of Homo sapiens with 4 samples.

Results

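The transcripts described here were those that the array of Arp8 knockout cells (Arp8 KO) and the array of cells labelled as overexpressing Arp8 (Arp8 OE) had in common, and in which both differed from wild-type cells (WT) and from Arp5 knockout cells (Arp5 KO). They were chosen by their measured values: a probe was taken if it was well above background on all 4 arrays and if Arp8 KO and Arp8 OE both lay over 2-fold above, or both over 2-fold below, both WT and Arp5 KO. Of 21783 probes well above background on all 4 arrays, out of 41000 on the array, 79 were higher and 50 were lower by this rule, which is 0.363% and 0.23% of the probes tested. The 79 higher probes held 20 genes with a RefSeq symbol, and the 50 lower probes held 36. With the normexp background correction in place of that of the scanner software, 14 probes were higher and 17 lower. Because the rule used the values of every array, the levels of these transcripts are a description, and nothing is read from the number that met the rule.

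All cells were Nalm-6, a human pre-B leukemia cell line. In Arp5 KO cells both alleles of the gene for actin-related protein 5 had been disrupted by targeting. The Arp8 KO cells carried a disrupted gene for actin-related protein 8, and the Arp8 OE cells were labelled as overexpressing it; for neither do the labels or the study's methods name a clone, so a shared origin of these cultures and an effect of Arp8 cannot be told apart. The treatment protocol gave heme at 20 uM for 12 hours to induce oxidative stress, but the labels disagreed: titles gave heme for every group, the treatment characteristic gave no heme for both knockouts, and the source field withheld it from Arp5 KO alone. Which version holds is not settled by the labels, and what part the treatment had in these transcripts was not tested. Each group had 1 array, so no difference was set against replicate cultures, no test was made and no p-value is given.

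Arp5 and Arp8 are subunits of INO80, a chromatin remodeling complex that slides nucleosomes and takes part in transcription, replication and repair. Both are actin-related proteins that sit in different modules of the complex, and both bear on its ability to remodel nucleosomes. The 4 arrays lay on 1 slide, WT and Arp5 KO at positions 1 and 2 and Arp8 OE and Arp8 KO at positions 3 and 4, so the split of the arrays by these transcripts was also the split by place on the slide, and these cannot be told apart.

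The labels were checked first. ACTR5, which encodes Arp5, had a log2 difference from WT of -4.27 for Arp5 KO. ACTR8, which encodes Arp8, had differences from WT of -0.53 and -0.68 for Arp8 KO at its 2 probes, and of 0.02 and -0.01 on the array labelled Arp8 OE. The gene was therefore not raised at these probes on that array; whether the probes lie within the deleted or the expressed part is not known, and Arp8 OE is used below only as the name of the culture. All 15 pre-B markers with a probe were well above background on every array, against 2 of 7 T cell markers and 2 of 7 epithelial and fibroblast markers on each, 3 of 7 myeloid markers (2 in Arp5 KO) and at most 1 of 6 erythroid markers. Levels below are log2 of the signal relative to the 75th percentile of the array, and the SD between replicate spots of a probe gave a technical SD of 0.08 for a log2 difference between 2 arrays; this covers the spots of an array only.

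**Figure D1:**
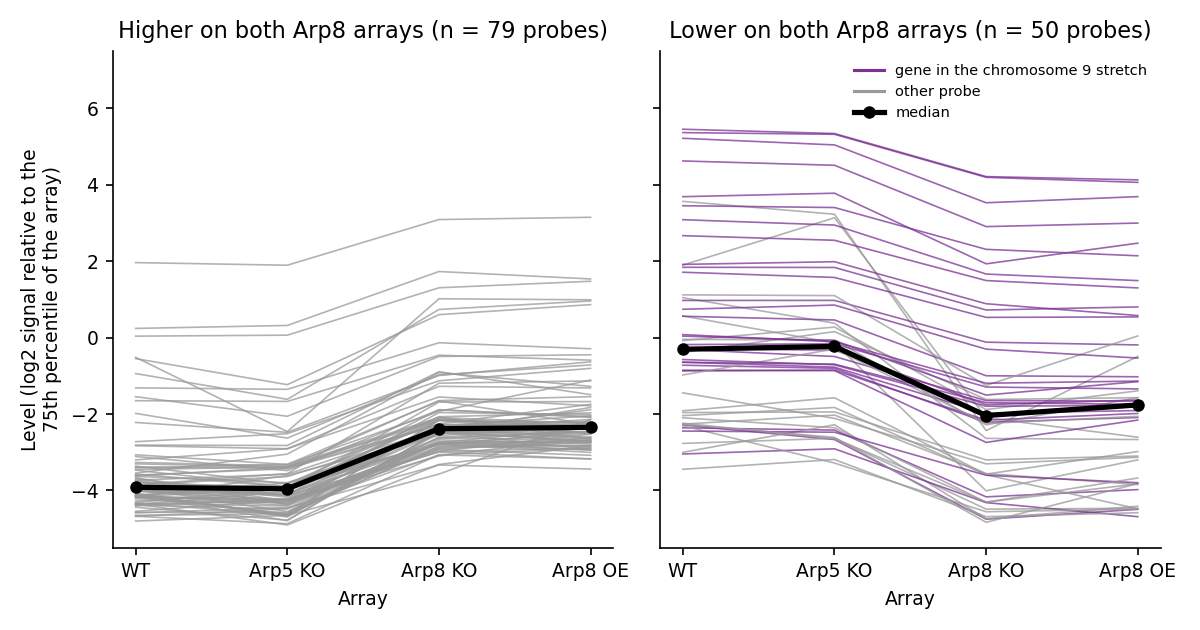
Level (log2 signal relative to the 75th percentile of the array) of each of the 79 higher and 50 lower probes on the 4 arrays, 1 line per probe, with the median in black. The medians of the higher probes lay at -3.92 for WT, -3.96 for Arp5 KO, then -2.38 for Arp8 KO and -2.35 for Arp8 OE, and most purple lines, which are genes of a stretch of chromosome 9, lie nearly level within each pair of arrays.

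The lower transcripts were dominated by neighbouring genes. Of the 36 named lower genes, 25 lie on chromosome 9, and 24 of these follow each other without a gap of more than 10 measured genes, from BICD2 to PTBP3. No other named lower gene had another within 10 measured genes on either side, whereas 2.80% of all 11162 genes placed on a chromosome had a lower gene that near. These 24 genes accounted for 29 of the 50 lower probes. In the RefSeq annotation of assembly GRCh38.p14, the promoters of the first and last gene are chr9:92764784-92765083 and chr9:112332977-112333276, both on the minus strand, in the long arm of the chromosome. The file headers name another build, hg19, and only the order of the genes was used to find the stretch.

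The members in the stretch have varied functions. TXN encodes thioredoxin, a small protein that reduces disulfide bonds and is a part of the defence against oxidants. At its brighter probe TXN had levels of 5.21 for WT and 5.04 for Arp5 KO, against 3.52 for Arp8 KO and 3.68 for Arp8 OE. At its other probe the levels were 4.62 and 4.50 against 2.90 and 2.99. On both probes the Arp8 arrays lay close together and well below the other two.

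SEC61B encodes the beta subunit of the Sec61 channel, through which new proteins enter the endoplasmic reticulum. Its levels were 5.45 for WT, 5.33 for Arp5 KO, then 4.21 for Arp8 KO and 4.12 for Arp8 OE at the brighter of its 2 member probes. NANS, the enzyme that makes the sialic acid precursor, had levels of 3.08, 2.94, 1.66 and 1.49 on the same arrays. ALG2, a mannosyltransferase of N-glycan assembly, had levels of 0.08, -0.11, -1.20 and -1.14. In each of these genes of protein export and glycosylation both Arp8 arrays lay below both others, with the nearest arrays 2.18-fold apart for SEC61B, 2.43-fold for NANS and 2.04-fold for ALG2.

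Genes of DNA and chromosome maintenance in the stretch included SMC2, a core subunit of condensin, with levels of 0.56 for WT, 0.46 for Arp5 KO, then -0.9996 for Arp8 KO and -1.03 for Arp8 OE. FANCC, a subunit of the Fanconi anemia core complex, had levels of 0.97, 0.97, -0.12 and -0.19. RAD23B, which works with XPC in the recognition of damaged DNA, had levels of 3.45, 3.40, 2.31 and 2.14 at its member probe. SMC2 had the widest gap of the 3, at 2.75-fold between the nearest arrays, against 2.13-fold for both others. RNF20, a ubiquitin ligase of histone H2B, had levels of -0.18, -0.16, -1.29 and -1.34, with Arp8 OE slightly the lowest array, as in SMC2, FANCC and RAD23B.

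AOPEP, an aminopeptidase gene, held the widest gaps between the nearest arrays among the member probes of the stretch. Its levels were -2.29 for WT and -2.67 for Arp5 KO against -4.75 for Arp8 KO and -4.49 for Arp8 OE at one, and -2.36 and -2.42 against -4.17 and -3.98 at the other. CTNNAL1, a gene related to the alpha-catenins, had levels of 3.68, 3.77, 1.93 and 2.47. Here Arp8 KO lay 0.54 below Arp8 OE, which with TMEM245 (0.58 at one probe) was the largest gap between the Arp8 arrays among the 29 member probes; 27 of the 29 lay within 0.5 of each other.

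The other members of the stretch were BICD2, a dynein adaptor, FAM120A, SLC71A2, PRXL2C, NCBP1 of the nuclear cap-binding complex, INVS, MRPL50 of the mitochondrial ribosome, ZNF189, FSD1L, TMEM38B, GNG10, a G protein gamma subunit, SUSD1 and PTBP3, a splicing regulator of the PTB family. Over the 29 member probes the median difference from WT was -1.27 for Arp8 KO and -1.31 for Arp8 OE, and Arp5 KO differed from WT by -0.06. Both Arp8 differences were thus near-equal in the median, 15 probes being lower in Arp8 KO and 14 lower in Arp8 OE.

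Since the 2-fold rule picks the probes at the outer side of a distribution, the genes between the members were also examined. Between BICD2 and PTBP3, 58 genes were measured, by 81 probes. The 29 member probes among them lay below by the rule, so only the 52 other probes are set against the background. Of these 52, 46 (88.5%) had both Arp8 arrays below both WT and Arp5 KO by some amount, against 19.9% of all probes tested; for the opposite order the background was 22.5%, and 2 of the 52 showed it. The difference of a gene was taken as the mean of the Arp8 arrays minus the mean of WT and Arp5 KO. Over the 34 genes with no member probe its median was -0.91 with quartiles of -1.004 and -0.72, the median being 53.2% of the signal of WT and Arp5 KO. With the 24 member genes included, the median over all 58 genes was -1.04, or 48.6% of that signal.

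By array, the median of the 34 genes lay at -0.74 for Arp8 KO, -0.93 for Arp8 OE and -0.02 for Arp5 KO, each relative to WT. Of the 34 genes, 28 (82.4%) had a difference below -0.5, against 432 of the 11107 measured genes that were no members (3.89%). The ends of the stretch were set by members. Many of those that were not members missed the rule by little. FAM120A had a further probe at 0.997 between the nearest arrays, just outside the threshold of 1. ERP44, a chaperone of the early secretory pathway, was at 0.987, and PTBP3 itself was just inside at 1.01. Genes named here because of their place, after their values were seen, include XPA of nucleotide excision repair with a difference of -0.71, PTCH1, the receptor of hedgehog proteins, with -0.84, and UGCG, which makes glucosylceramide, with -0.91.

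There were 6 genes inside the stretch above -0.5. MKRN10P, CTSV, GAS2L1P2 and CCDC180 followed each other in gene order and had differences of -0.31, -0.02, -0.08 and 0.37. ABCA1, the cholesterol exporter, had a difference of 0.25, with levels of -0.85 for WT, -0.81 for Arp5 KO, then -1.08 for Arp8 KO and -0.09 for Arp8 OE. PALM2AKAP2, an anchor protein gene of kinase A, had 0.06. The Arp8 arrays and the others were intermingled in MKRN10P, CTSV, GAS2L1P2 and ABCA1, while in CCDC180 both Arp8 arrays lay above. SUSD3 was unlike its neighbours in another way: its levels were 1.99 for WT, 1.34 for Arp5 KO and -0.68 for Arp8 KO, but 1.32 for Arp8 OE.

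**Figure D2:**
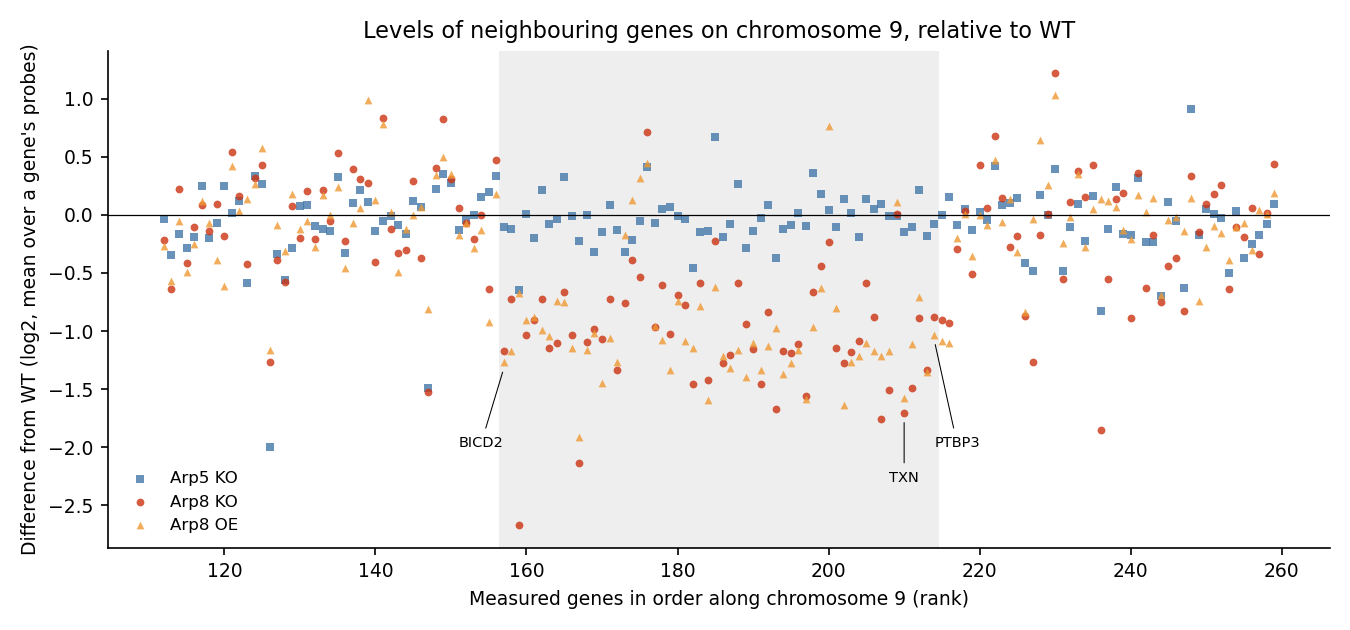
Difference from WT (log2, mean over the probes of a gene) in Arp5 KO and in both Arp8 cultures for measured genes in their order along chromosome 9; the shaded part runs from BICD2 to PTBP3. Within it the medians over all 58 genes, members included, were -1.03 for Arp8 KO and -1.11 for Arp8 OE against -0.06 for Arp5 KO, and the points of both Arp8 arrays return to around 0 on either side.

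The change at both ends was abrupt. Of the 10 measured genes before BICD2 the median difference was -0.02, and of the 10 after PTBP3 it was -0.06. Directly before BICD2, IPPK had a difference of -0.88 and LOC100128361 one of 0.16, and the next genes outward, CENPP, NOL8 and IARS1, had -0.14, -0.25 and -0.05. Directly after PTBP3, HSDL2 and INIP had differences of -0.99 and -1.10 without reaching the rule, followed by SLC31A2 with -0.20 and FKBP15 with 0.00. The genes with the lower level therefore reached from IPPK or BICD2 to INIP. The rest of chromosome 9 had a median gene difference of 0.00.

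No other chromosome held a stretch of this kind. In a running median over 21 neighbouring measured genes, 61 of 10691 windows lay below -0.5, and all 61 were on chromosome 9, where the lowest was -1.14, or -0.92 when the member genes were left out. The lowest window on any other chromosome was -0.28, on chromosome X, and the highest anywhere was 0.24, on chromosome 6. For Arp5 KO minus WT the lowest window on chromosome 9 was -0.17. DNA copy number and chromatin were not measured on these arrays, and whether either differed between the cultures was not tested.

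**Figure D3:**
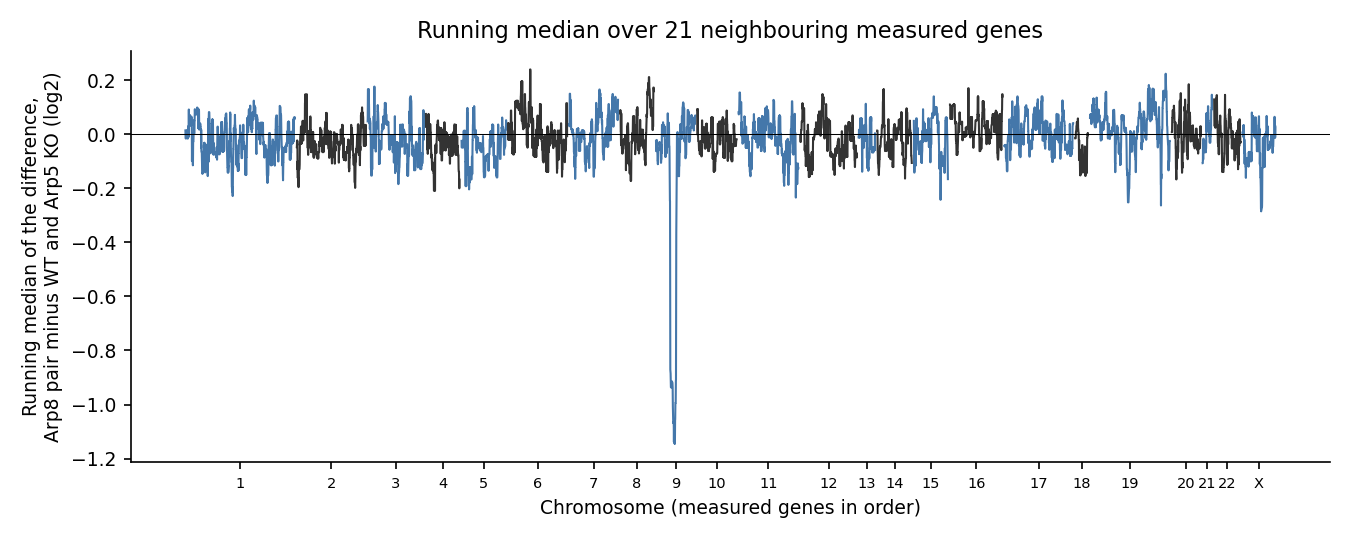
Running median over 21 neighbouring measured genes of the mean of Arp8 KO and Arp8 OE minus the mean of WT and Arp5 KO (log2), with chromosomes in order and in alternating colours. The dip on chromosome 9 reaches -1.14, and windows on other chromosomes lie between -0.28 and 0.24.

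Further probes of the member genes were examined next. Within the stretch, 12 member genes had 15 further tested probes, of which 5 were members themselves. The other 10 all lay lower on average on the Arp8 arrays, between -1.19 and -0.76, with a median of -1.03. These probes share the RNA and the arrays with the first ones and are not replicates of a culture. In addition, 2 genes whose positions lie between BICD2 and PTBP3 were outside the rule because they were not well above background on the Arp8 arrays. FGD3, a guanine nucleotide exchange factor gene, had levels of 0.79 for WT and 0.62 for Arp5 KO and was at least 43.1-fold lower on both Arp8 arrays, and at least 3.99-fold lower at a dimmer probe. ANKS6, a ciliary ankyrin repeat protein gene, had levels of -0.61 and -0.89 and was at least 15.2-fold lower. These bounds were set against the lowest level well above background on each array.

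Outside the stretch, the named lower genes were scattered, and 3 of the 12 showed larger differences than any member of the stretch. BTBD6, ZSCAN18 and SMCO4 were at least 8.07-fold apart at the nearest arrays, against at most 3.54-fold in the stretch. The others lay between 2.02-fold and 2.92-fold apart. The 12 named genes lay on 10 chromosomes, chromosome 9 included, with 2 each on chromosomes 6 and 17. The promoters of the 3 named genes that were furthest apart are shown beside that of TXN of the stretch, so that a scattered and a clustered set of lower genes can be set side by side at their starts. They are given 5' to 3' from RefSeq (GRCh38.p14), in lower case with each CpG in capitals. BTBD6 is at chr14:105248283-105248582 on the plus strand, ZSCAN18 at chr19:58118355-58118654 on the minus strand, SMCO4 at chr11:93543342-93543641 on the minus strand and TXN at chr9:110256458-110256757 on the minus strand.
BTBD6: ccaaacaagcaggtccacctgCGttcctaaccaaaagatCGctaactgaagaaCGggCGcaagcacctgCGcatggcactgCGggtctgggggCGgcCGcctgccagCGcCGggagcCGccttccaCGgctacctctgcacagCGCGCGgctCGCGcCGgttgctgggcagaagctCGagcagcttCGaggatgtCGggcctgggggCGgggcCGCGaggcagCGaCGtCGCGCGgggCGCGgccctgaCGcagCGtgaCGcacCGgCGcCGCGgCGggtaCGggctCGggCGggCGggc
ZSCAN18: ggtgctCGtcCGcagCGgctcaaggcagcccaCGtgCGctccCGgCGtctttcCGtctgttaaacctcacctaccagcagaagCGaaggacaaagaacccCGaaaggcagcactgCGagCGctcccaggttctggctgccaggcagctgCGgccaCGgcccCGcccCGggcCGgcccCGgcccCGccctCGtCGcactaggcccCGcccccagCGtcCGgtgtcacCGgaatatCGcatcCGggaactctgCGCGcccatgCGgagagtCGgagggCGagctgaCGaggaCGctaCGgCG
SMCO4: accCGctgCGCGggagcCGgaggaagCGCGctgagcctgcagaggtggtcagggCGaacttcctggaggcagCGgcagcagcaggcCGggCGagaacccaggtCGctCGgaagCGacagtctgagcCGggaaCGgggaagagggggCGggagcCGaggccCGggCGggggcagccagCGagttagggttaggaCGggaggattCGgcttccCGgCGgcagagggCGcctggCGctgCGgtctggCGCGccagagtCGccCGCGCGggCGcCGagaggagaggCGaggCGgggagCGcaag
TXN: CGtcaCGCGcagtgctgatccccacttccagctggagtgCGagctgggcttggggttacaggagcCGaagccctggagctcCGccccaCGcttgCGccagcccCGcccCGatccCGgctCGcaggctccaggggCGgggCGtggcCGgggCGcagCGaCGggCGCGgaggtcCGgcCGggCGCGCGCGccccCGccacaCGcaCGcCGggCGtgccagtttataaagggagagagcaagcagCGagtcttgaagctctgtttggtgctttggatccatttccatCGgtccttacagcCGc

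These promoters hold 43, 36, 38 and 34 CpG, and their observed over expected CpG ratios are 1.07, 0.98, 0.99 and 0.93. Promoters of 300 bases, from 250 before to 50 after the start of transcription, were found for 33 of the 36 lower genes. Of these, 32 (97.0%) had a CpG ratio over 0.6, as did 83.3% of 9070 promoters of measured genes, and 48 of the 51 promoters found for genes of the stretch, members or not. Of the 14 promoters found for the 20 higher genes, 7 (50%) were above 0.6. The antioxidant or MARE-like motif TGACNNNGC, searched on both strands, was in 6 of the 33 lower promoters (18.2%), among them that of BTBD6, and in 15.6% of all; the TATA box TATAAA was in 1 (3.03%), that of TXN, and in 5.64% of all. The hypoxia element core ACGTG was in 9 lower promoters (27.3%) and in 27.1% of all, and the E-box CACGTG, which contains it, in 3 (9.09%) and in 10.5%. The heat shock motif GAANNTTC and the cyclic AMP element TGACGTCA were each in 1 lower promoter (3.03%), against 4.49% and 3.38% of all, and the C/EBP-ATF element TGATGCAA was in none, against 0.54% of all. The shares among lower genes thus lay near those of all measured genes. Of the 14 higher promoters, 6 held ACGTG, 3 CACGTG, 2 TGACNNNGC, 1 GAANNTTC and 1 TATAAA, and none held TGACGTCA or TGATGCAA; with so few promoters these counts are not read against the shares. These matches are letters in a window, not sites shown to be bound.

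BTBD6, an adaptor protein with a BTB domain, had levels of 3.56 for WT and 3.22 for Arp5 KO but -2.43 for Arp8 KO and -0.49 for Arp8 OE. The nearest arrays were 13.1-fold apart, and the Arp8 arrays themselves differed by 1.94, more than in any member of the stretch. ZSCAN18, a SCAN domain zinc finger gene, had levels of 0.57, -0.14, -4.01 and -3.20. A dimmer probe of ZSCAN18 was well above background on WT and Arp5 KO only and was at least 2.08-fold lower on the Arp8 arrays. SMCO4, a gene for a small membrane protein, had levels of 1.04, 0.38, -2.64 and -2.67, and here the Arp8 arrays lay within 0.03 of each other. An unnamed transcript, BC013592, had the widest gap of all members, with levels of 1.89 for WT, 3.13 for Arp5 KO, then -2.10 for Arp8 KO and -2.61 for Arp8 OE.

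The remaining named lower genes lay between 2.02-fold and 2.92-fold apart at the nearest arrays. Among transcription factors, HES2, a repressor of the family that NOTCH induces, had levels of -2.04 for WT, -1.83 for Arp5 KO, then -3.59 for Arp8 KO and -4.48 for Arp8 OE. TBX2, a T-box repressor, had levels of -0.39, 0.15, -1.62 and -1.57. ZSCAN9, also of the SCAN domain zinc finger genes, had -0.98, -0.30, -2.25 and -2.06. The Arp8 arrays were close together in TBX2 and ZSCAN9 and differed by 0.89 in HES2.

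LZTFL1, which regulates ciliary trafficking by the BBSome, had levels of -0.05 for WT, -0.07 for Arp5 KO, then -2.29 for Arp8 KO and -1.58 for Arp8 OE. PCDH9, a protocadherin of cell adhesion, had -0.08, 0.27, -1.88 and -1.39. GLDC, the glycine decarboxylase of the glycine cleavage system, had -1.92, -1.58, -3.57 and -2.98; it lies on chromosome 9 but outside the stretch. In these 3 genes Arp8 KO was the lowest array, as it was in 10 of the 12 genes, whereas in the stretch the Arp8 arrays had no common order.

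NQO1, a quinone reductase and a target of the oxidant-responsive factor NRF2, was just inside the rule. Its levels were -1.45 for WT, -2.11 for Arp5 KO, then -3.30 for Arp8 KO and -3.13 for Arp8 OE, so that Arp5 KO lay between WT and the Arp8 pair. The 2 others were dim: TMC8 had levels of -3.45, -3.19, -4.68 and -4.58, and MPIG6B, an inhibitory receptor known from platelets, had -2.24, -2.64, -4.31 and -3.67. TMC8 had a further probe well above background on WT and Arp5 KO only, as had LZTFL1, while of 3 further MPIG6B probes 1 was well above background on Arp8 KO alone. None of these 12 genes had another probe tested, so each rests on a single probe.

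**Figure D4:**
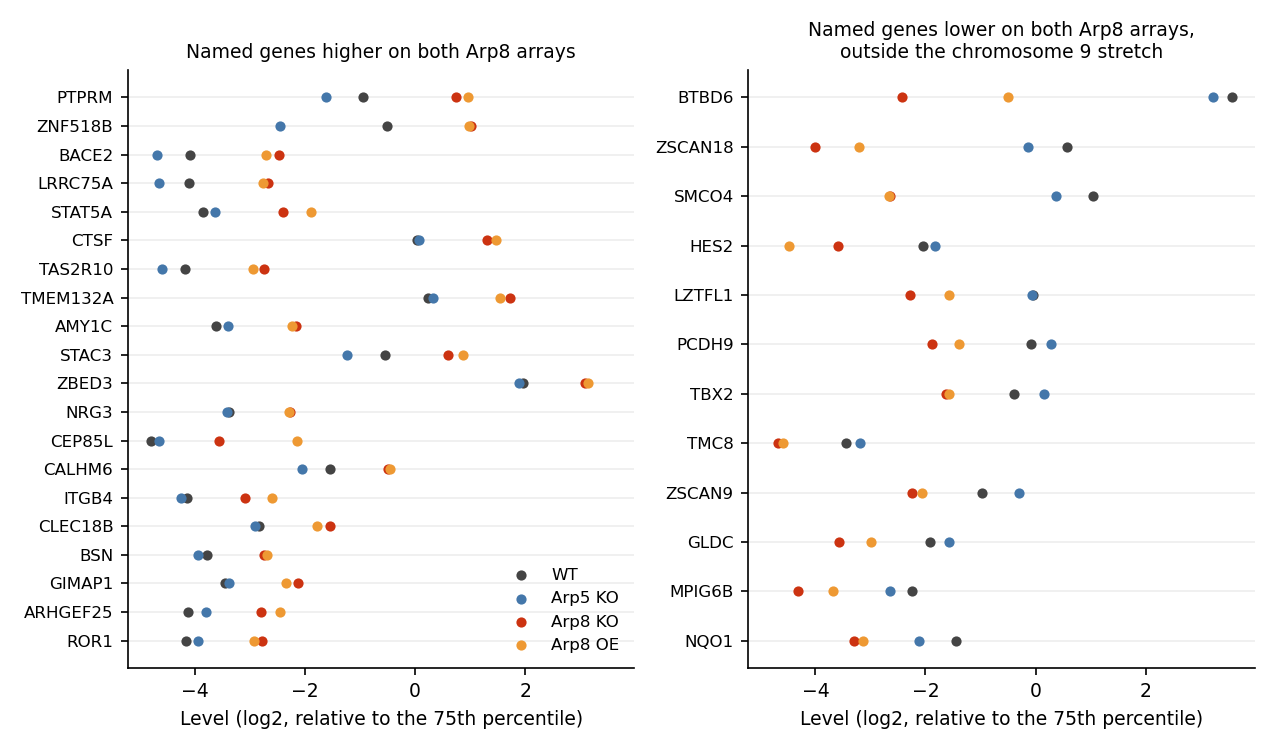
Level (log2 signal relative to the 75th percentile of the array) on each of the 4 arrays for the named higher genes and for the named lower genes outside the chromosome 9 stretch, 1 row per gene ordered by the distance between the nearest arrays of both pairs; 1 probe is shown per gene. BTBD6, ZSCAN18 and SMCO4 are over 8-fold apart, and most higher genes lie at the dim end.

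The higher transcripts differed from the lower ones in what could be named. Of the 79 higher probes, 58 (73.4%) carried no RefSeq symbol, against 23.9% of all probes tested and 18.0% of the lower probes. They were also dim: 67 of 79 (84.8%) had a mean level below -2, against 28.1% of probes tested and 32.0% of the lower probes. Both features went together, as 53 probes were unnamed and dim. Without regard to the rule, tested probes with no symbol had a median difference of 0.09 between the Arp8 pair and the other pair, and those with a symbol one of -0.01. The 58 unnamed higher probes lay between 1.01 and 2.66 above WT in Arp8 KO and between 1.02 and 2.72 above it in Arp8 OE, and the 21 named ones between 1.04 and 1.68 and between 1.04 and 2.66. What part the low signal or the unnamed transcripts had in the higher calls was not tested.

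PTPRM, a receptor tyrosine phosphatase of cell contacts, had the widest gap of the named higher genes, with levels of -0.94 for WT and -1.62 for Arp5 KO against 0.73 for Arp8 KO and 0.96 for Arp8 OE. ZNF518B, a zinc finger gene, had levels of -0.52 and -2.46 against 1.01 and 0.99, and a dimmer probe was well above background on all but the Arp5 KO array. The Arp8 arrays were close in both genes, and in both Arp5 KO lay below WT. STAC3, a gene known from the coupling of excitation and contraction in muscle, also had Arp5 KO as its lowest array, with levels of -0.55, -1.23, 0.60 and 0.86.

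Of the other brighter genes, 3 were nearly level between WT and Arp5 KO. CTSF, a lysosomal cysteine protease, had levels of 0.04 for WT, 0.06 for Arp5 KO, then 1.30 for Arp8 KO and 1.47 for Arp8 OE. TMEM132A, a transmembrane protein gene, had 0.24, 0.32, 1.73 and 1.53. ZBED3, a zinc finger gene linked to WNT signalling, was the brightest higher member, with 1.96, 1.89, 3.09 and 3.14. CALHM6, of the calcium homeostasis modulator family, lay lower in Arp5 KO than in WT, with -1.55, -2.06, -0.49 and -0.45. Together with PTPRM, ZNF518B and STAC3 these were the 7 named probes with a mean level of -2 or above.

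Among dim genes, BACE2, an aspartic protease related to the beta-secretase, was a member at both of its probes. Its levels were -4.09 for WT, -4.70 for Arp5 KO, then -2.47 for Arp8 KO and -2.71 for Arp8 OE at one and -3.94, -4.55, -2.62 and -2.70 at the other. STAT5A, a transcription factor of cytokine signalling, had -3.85, -3.64, -2.40 and -1.89 at its member probe, and a second tested probe had a smaller mean difference of 0.62. CEP85L had -4.80, -4.65, -3.57 and -2.14 at its member probe, the largest gap between Arp8 KO and Arp8 OE of all higher members. Its second tested probe was brighter on WT and Arp5 KO and had a mean difference of 0.50. There the order of the Arp8 arrays was reversed, with -2.24 for Arp8 KO and -2.88 for Arp8 OE. These 2 further probes, the only tested ones of higher genes that were not members, thus lay higher on the Arp8 arrays without meeting the rule. Other probes of CEP85L, GIMAP1, ROR1 and ARHGEF25 were well above background on no array, and no direction is read from them.

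ROR1, a receptor of WNT5A, ITGB4, an integrin subunit, NRG3, a neuregulin, BSN, a protein of presynaptic zones, TAS2R10, a bitter taste receptor, LRRC75A, GIMAP1, ARHGEF25, AMY1C and CLEC18B completed the named higher genes. Their levels lay between -4.65 and -2.83 on WT and Arp5 KO and between -3.10 and -1.55 on the Arp8 arrays. AMY1C and CLEC18B belong to families of near-identical copies, so the probe may not tell the copies apart. At the edge of the rule, ROR1 had a gap of 1.0001, ARHGEF25 1.01 and GIMAP1 1.04, and just outside it OPLAH had 0.98, GUSBP3 0.97 and LYSMD1 0.96.

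The named higher genes lay on 13 chromosomes and formed no stretch. STAC3 and ARHGEF25 on chromosome 12, and CALHM6 and CEP85L on chromosome 6, were within 10 measured genes of each other, which makes 4 of 20 genes (20.0%), against 3.39% of all genes placed on a chromosome that had a higher member that near. No chain was longer than 2 genes. Of 33 further probes that were well above background on the Arp8 arrays only and at least 2-fold above the floor of the others, 27 had no symbol (81.8%). Of those with a symbol, TENM2, a teneurin of neuronal contacts, was at least 16.8-fold higher, with levels of -0.93 for Arp8 KO and -0.91 for Arp8 OE. GPR162, TSPAN8, EDAR and SNX20 were at least 5.45-fold, 3.01-fold, 2.61-fold and 2.38-fold higher. In the other direction, outside the stretch, YOD1, a deubiquitinase, MBNL2, a splicing regulator, and ZNF256 were at least 20.98-fold, 12.3-fold and 10.13-fold lower.

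Whether the knockout or the culture labelled Arp8 OE lay further from the other arrays is not set by the rule. Among the higher probes Arp8 KO was further in 39 and Arp8 OE in 40, an order that turned with scaling to the array median (52.2% for Arp8 KO), and among the lower probes Arp8 KO was further in 32 and Arp8 OE in 18. Within 0.5 of each other were 109 of the 129 members (84.5%), against 82.0% of probes tested. By set these were 70 of the 79 higher probes and 27 of the 29 lower probes in the stretch. Among the other lower probes they were 6 of the 12 named ones outside the stretch and 6 of the 9 unnamed ones. The unnamed ones were not placed on a chromosome and may lie inside or outside the stretch. The rule used both Arp8 arrays, so nothing is read from the closeness of the members. BTBD6, CEP85L at its member probe and an unnamed lower transcript, A_23_P3083, were the members with the widest gaps. The last was picked out after its values were seen, as was BC013592.

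**Figure D5:**
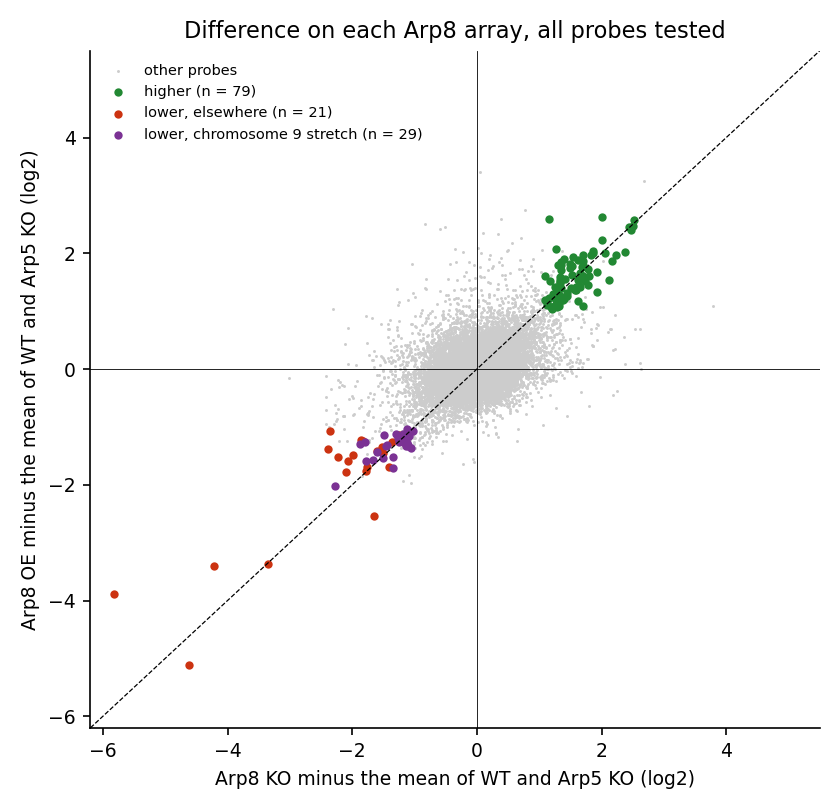
Difference of each Arp8 array from the mean of WT and Arp5 KO (log2), Arp8 KO on the horizontal and Arp8 OE on the vertical axis, for all 21783 probes tested, with higher members in green, lower members of the chromosome 9 stretch in purple and other lower members in red; the dashed line marks equal differences. The purple points gather near -1 on both axes, and BTBD6, ZSCAN18, SMCO4 and BC013592 lie beyond -3 on both. The red points include the unnamed lower members, which were not placed on a chromosome.

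The transcripts were also set against gene groups chosen for the cell type, the treatment and the complex. Of 42 groups, 10 held a member and 32 held none; since the 56 named members were 0.502% of the 11163 genes measured, a small group without a member is no result about that group. None of the 16 subunits of the INO80 complex was a member, and the median difference of their probes was -0.04, against 0.01 over all probes tested. In the group of BACH1 and NRF2 targets as listed, NQO1 was the only member among 18 genes measured. The group median was -0.44, the lowest of all groups. Relative to WT, its probes lay at a median of -0.75 for Arp8 KO, -0.33 for Arp8 OE and -0.27 for Arp5 KO. TXN of the stretch was not on this list. In the group of DNA repair genes as listed, FANCC of the stretch was the only member among 28 measured, and the group median was -0.19. RAD23B was not on this list. Of 25 p53 targets none was a member, although the group median was 0.53, the highest of all: the probes lay at a median of 1.03 above WT in Arp8 KO but of 0.32 for Arp8 OE.

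Groups with members were mostly large families. Of 346 zinc finger genes measured, ZNF518B was higher and ZNF189, ZSCAN18 and ZSCAN9 were lower, with a group median of 0.01. HES2 was the only member of 11 NOTCH pathway genes measured, ROR1 of 12 WNT pathway genes and PCDH9 of 5 protocadherins. Of 79 BTB domain genes BTBD6 was the only member, with a group median of 0.04. None of 23 pre-B markers, 25 interferon-stimulated genes, 23 MHC genes or 111 ribosomal protein genes was a member, and the medians of these groups were -0.05, -0.07, 0.26 and 0.21. Both Arp8 arrays lay above both others by some amount in 21.9%, 5.56%, 51.4% and 73.6% of their probes, against 22.5% of all probes tested.

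The place of the spots on the array was examined as well, because neighbouring spots hold unrelated probes. Of the 79 higher members 4 had an adjacent spot with the same pattern (5.06%), as had 2.05% of all probes tested with a single spot. Of the 50 lower members 4 had (8%), against 1.63%. These included FAM120A and SEC61B of the stretch, MPIG6B and BSN. The median local background was 38.0 for WT, 39.0 for Arp5 KO, then 31.5 for Arp8 KO and 38.5 for Arp8 OE, so Arp8 OE had a background like that of WT, and no spot was saturated. The signal before scaling did split by the pairs. Its 75th percentile was 735 for WT and 740 for Arp5 KO, against 656 for Arp8 KO and 647 for Arp8 OE. The median signal was 61.2 and 60.3, against 53.9 and 55.2. What part this had in the calls was not tested.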

How the data were processed

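RNA of 4 Nalm-6 cultures (WT, Arp5 KO and the 2 Arp8 cultures), 1 array per group, was labelled with Cy3 and hybridized to a one-colour Agilent human array. Per the file headers, the deposited intensity values were made with Agilent Feature Extraction 10.10.1.1, which subtracted background and detrended each array, and the other columns used were its flags. The series table deposited by the authors held nearly the same intensity values times 1 factor per array and was an alternative. Here, flagged outlier spots were left out, spots of a probe were averaged and log2 of the 75th percentile of the array was subtracted, with no pseudocount. A probe was tested if at least 50% of its spots were well above background on every array. Dim probes outside the rule were given only as bounds.

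The members and gene lists were chosen with earlier results of these data known. Genes were named by a rule: the 12 largest and 12 smallest gaps in each direction, genes with several member probes, list members, the targeted genes, the 3 genes on either side of the threshold and the 5 largest bounds in each direction; other names are said to be chosen afterwards. Probes took current symbols from the RefSeq table of GRCh38.p14 (27210 of 41000), which also gave gene order and promoters; the headers name hg19, and no coordinates were converted. With 1 array per group no test was possible, and precision is limited by the number of arrays. Scripts used Python 3.11.15, pandas 2.3.3, numpy 2.4.6, matplotlib 3.10.9 and, for normalization alternatives, R 4.3.3 with limma 3.58.1, and were tested on simulated data. Alternatives changed the scaling, background correction, source of values, filter, outlier spots, probe averaging, threshold and neighbouring spots.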

Additional observations from a re-analysis of the deposited data

How the results depend on the processing

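No paired analysis was possible because each group had only 1 array. The values for the chromosome 9 stretch under every alternative, and the counts without the Arp8 OE or the Arp5 KO array, were chosen after seeing the data.

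Of the 79 higher and 50 lower probes, 69 and 50 were shared with scaling to the array median, 70 and 47 with quantile normalization and 75 and 47 with cyclic loess. With normexp, 14 higher and 17 lower probes were called. With probes well above background on at least 1 array and floored, the counts were 122 and 83, without a filter 242 and 240, over gene means 18 and 33, at 4-fold 3 and 4, and at 1.5-fold 277 and 202. Higher probes thus outnumbered lower ones, but not with normexp, over gene means or at 4-fold. Without the Arp8 OE array they were 251 and 259, and without the Arp5 KO array 161 and 149. The stretch held 24 lower member genes, but 8 with normexp, 0 at 4-fold and 46 at 1.5-fold, and its median gene difference of -1.04 was -0.86 with normexp. Gene lists holding a member numbered 10, and 5 with normexp, 2 at 4-fold and 21 at 1.5-fold. Lower genes with a neighbouring lower gene were 66.7%, and 34.7% without a filter, 0% at 4-fold and 47% at 1.5-fold; higher ones were 20%, and 0% with normexp. Members beside a spot of the same pattern were 0% in both directions with normexp and at 4-fold. Higher members with Arp8 KO further out were 49.4%, 33.3% at 4-fold, and over 50% with the array median (52.2%), over gene means (55.6%), at 1.5-fold (54.9%), with the floor (52.5%), without a filter (51.2%) and without adjacent spots (50.7%), and other probes of lower genes lying the same way 66.3% without a filter. CpG ratios over 0.6 were found in 100% of higher promoters with normexp, and in 100%, 80.8%, 66.9% and 100% of lower promoters with normexp, with the floor, without a filter and at 4-fold, so that both sets crossed the 83.3% of all promoters. The 56 named genes kept their side in all 612 recomputed values, but many of these values could not have come out otherwise. Each member had 1 spot, well above background on every array, so changes of filter, outlier spots or neighbouring spots could not alter its value. The series table differed by little more than 1 factor per array, which scaling takes out. With it 78 higher and 50 lower probes were called, and 1 named gene was at or under the 2-fold margin. With normexp, 37 of the 56 were at or under the 2-fold margin, against 0 to 5 under each other alternative. Where an alternative left no genes for a share, no value was given. The causes were not tested.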
